A study of Xenopus laevis with 3 samples.

Results

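Gene expression was compared directly between *Xenopus laevis* embryos that received the 666 chimera and embryos that received GlycineR, a pair of channel constructs that the study used to depolarize embryonic cells by different ions. The comparison rests on 2 of the 3 arrays in the series, with the Control array used only to give a level for each gene. Members were all probe sets on the array apart from its own control sequences, kept where the signal reached 40 on the 666 chimera array or the GlycineR array. This left 22592 of 32475 probe sets, and each was described by the log2 ratio of its 666 chimera signal to its GlycineR signal.

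The 666 chimera is a dominant-negative form of the ATP-sensitive potassium (KATP) channel, delivered as 1 to 2 ng of synthetic mRNA per injected cell. GlycineR is a glycine-gated chloride channel delivered in the same amount, and by the study's methods its embryos were also kept in the channel opener ivermectin, which the labels do not mention. Control embryos were, by the same methods, injected with water. All embryos were collected at stage 11, the middle of gastrulation, and 50 embryos were pooled for each array, so that the embryo to embryo spread is not recorded. Stage of injection is given as usually the 4-cell stage with the deposited data and as the 1-cell stage in the study's methods. The GlycineR embryos differed from the 666 chimera embryos in the construct and in the drug, and the effects of these cannot be told apart.

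Resting potential is the voltage that a cell holds across its plasma membrane, set largely by potassium leaving through open channels. Blocking a potassium channel makes the inside less negative, and so does opening a chloride channel in a cell whose internal chloride is high. At stage 11 the embryo has the 3 germ layers, an organizer that secretes inhibitors of BMP and Wnt signals, and an ectoderm that is being divided into neural plate, plate border and epidermis. The outer layers of the later epidermis hold multiciliated cells, which beat to move mucus, and ionocytes, which transport ions, while the cement gland is a mucus-secreting organ at the front of the head.

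With 1 array for each condition, no test was possible, and every difference below is one between 2 arrays. The median signal was 102 on the 666 chimera array, 97.3 on the GlycineR array and 93.3 on the Control array, and 66.2%, 65.4% and 63.8% of probe sets reached 40 on these arrays in the same order. The 27 hybridization spike-in probe sets, bacterial transcripts added in known amounts, had a median log2 ratio of 0.0064 between 666 chimera and GlycineR, with a range of -0.23 to 0.33. A further 25 spike-in probe sets, the polyA set, had a median of -0.12, with a range of -0.50 to 0.15. The gapdh signal at its 3′ end was 3.95 times that at its 5′ end in 666 chimera, 3.41 times in GlycineR and 4.53 times in Control. Markers of mesoderm, endoderm, neural plate and epidermis reached 40 on every array at all of their measured probe sets, and those of the organizer did so at 6 of 8. Blood markers, which a gastrula should hold little of, summed to 1807 in 666 chimera, 8031 in GlycineR and 6437 in Control, mostly through 1 probe set of the globin gene hba-l5. Markers of differentiated muscle, chosen as likewise scarce at this stage, summed to 6607 in 666 chimera, 11617 in GlycineR and 5554 in Control. Neuron markers summed to 1039, 954.7 and 876, and egg and oocyte markers to 1800, 2245 and 2269, in the same order.

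Most genes had similar signals in the 2 depolarized groups. Over all probe sets kept, this was to about the same degree as in either group and Control. Between 666 chimera and GlycineR the signals were within 1.5-fold in 77.7% of probe sets, and the median log2 ratio was 0.03 with a standard deviation over probe sets of 0.66. The share within 1.5-fold was 76.8% for 666 chimera and Control and 78.5% for GlycineR and Control, with standard deviations of 0.66 and 0.63. Where both depolarized signals reached 40, a floor not set for Control, the depolarized groups were somewhat closer to each other. The share was then 83.6% between them, 80.2% for 666 chimera and Control and 82.4% for GlycineR and Control. The standard deviations were 0.47, 0.55 and 0.52 in the same order. A difference of at least 2-fold was found in 1070 probe sets that were higher in 666 chimera (4.74%) and in 770 that were lower (3.41%), together 8.14% of those kept. Among the 11870 probe sets named by 1 gene symbol, 3.88% were higher and 2.92% lower. At gene level, where the probe sets of a gene were averaged over its L and S copies (the homeologs left by the genome duplication of this species), 263 of 7464 genes were higher (3.52%) and 183 were lower (2.45%), together 5.98%. The ratios of the probe sets nearest the threshold were 1 to the last digit kept on either side of it for the higher calls, and -1 inside and -0.9993 outside for the lower calls, on the log2 scale. Of the probe sets that differed, 222 were at least 4-fold higher and 154 at least 4-fold lower in 666 chimera.

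**Figure D1:**
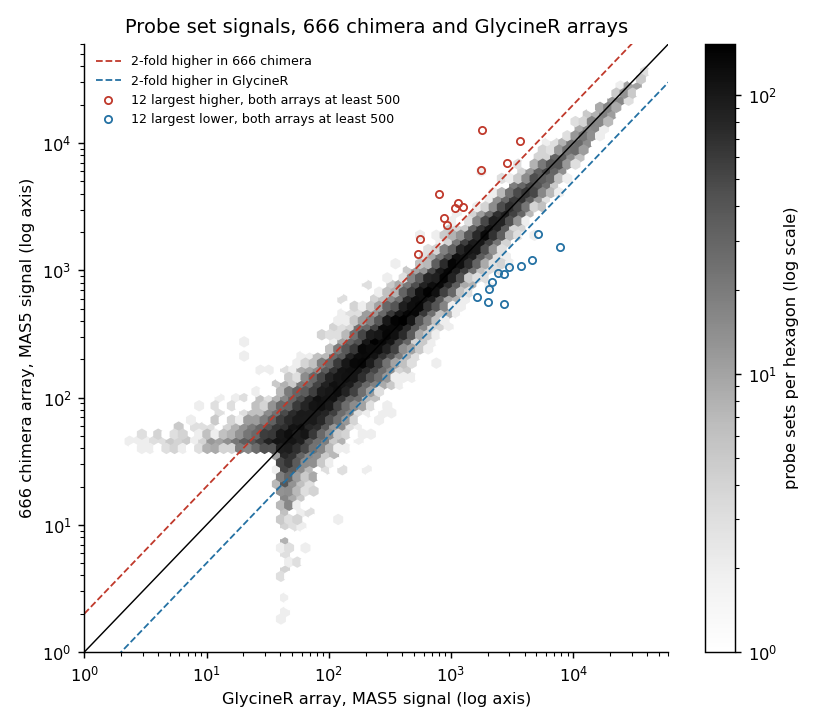
MAS5 signal of the 22592 probe sets, GlycineR array on the x axis and 666 chimera array on the y axis, both on log axes, with grey hexagons giving the number of probe sets. Dashed lines mark 2-fold, open circles mark the 12 largest differences in each direction among probe sets of at least 500 on both arrays, and the cloud narrows as signal rises.

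Differences were more frequent where signal was low. The Control array, which had no part in choosing the probe sets or in the ratio, was used to class them by level. With a Control signal under 40, 29.2% of 2276 probe sets differed 2-fold between 666 chimera and GlycineR. Probe sets of this class were kept only because 666 chimera or GlycineR reached a floor that Control did not. Their share thus depends on the floor as well as on the level. The share was 12.9% at 40 to 100, 4.41% at 200 to 500 and 0.912% of 1864 probe sets at 3000 or more. In the brightest class the standard deviation of the log2 ratio was 0.34, and 6 probe sets were higher and 11 lower in 666 chimera. One of the signals was under 40 in 611 of the 1070 higher and 421 of the 770 lower probe sets, which leaves 459 higher and 349 lower with both at 40 or more. For single probe sets named below, fold differences are given only where both signals reached 40, and signals alone otherwise. The ratios over Control among the results flagged for a closer look are the exception.

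**Figure D2:**
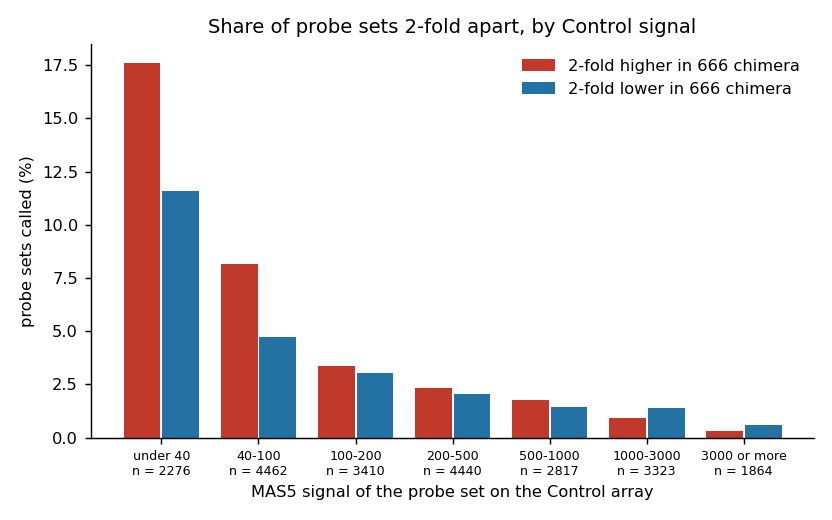
Percent of probe sets at least 2-fold higher (red) or lower (blue) in 666 chimera than in GlycineR (y axis), by MAS5 signal on the Control array (x axis), with the number of probe sets in each class. The higher share was 17.6% under 40 and 0.322% at 3000 or more.

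The injected channels themselves could not be followed. None of the 4 KATP subunit genes, and none of the glycine receptor subunits, had a probe set named by a single gene symbol, so neither construct was read here. Another 16701 probe sets had no symbol and 279 had several, and whether any of these belongs to the channels was not examined. Of the other potassium channels, 9 genes were measured and none differed 2-fold, with a median log2 ratio of 0.02. The potassium leak channel gene kcnk6.L had a signal of 478 in 666 chimera, 752.5 in GlycineR and 615 in Control. The glycine and GABA receptor list held only accessory genes here, among them gphn.L, the receptor anchor gephyrin, with 615 in 666 chimera, 580 in GlycineR and 555 in Control.

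Among 23 chloride channel and transporter genes the median log2 ratio was 0.12, and 1 gene (against 2.45% of all genes) was 2-fold lower in 666 chimera. This was slc26a6, an anion exchanger, with a signal of 175 in 666 chimera, 406 in GlycineR and 385 in Control. The intracellular chloride channel gene clic4.S was also lower at 1 of its probe sets, with 160 in 666 chimera, 335 in GlycineR and 415 in Control. For both genes the GlycineR signal lay nearer to Control. Differences of 2-fold were found at 2 of 16 sodium and calcium channel probe sets and at 2 of 25 pump probe sets. In the serotonin and histamine list 1 of 5 probe sets differed 2-fold. Over probe sets named by 1 symbol, 3.88% were higher and 2.92% lower. Under all 4 of the other signal scales tried, slc26a6 stayed past 2-fold and clic4.S did not. No probe set of the sodium and calcium channel, pump, or serotonin and histamine lists did so. These scales were quantile normalization, a common median, the hybridization spike-ins, and 32 added to every signal. The serotonin and histamine probe set that differed was slc18a2.L, the vesicular monoamine transporter. It read 55.7 in 666 chimera, 130 in GlycineR and 137 in Control.

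Several genes of ciliated cells, ionocytes and the cement gland were higher in 666 chimera than in GlycineR. Of 22 genes measured in this list, 6 were 2-fold higher and none 2-fold lower (27.3% higher, against 3.52% of all genes), and 19 lay above 0 (50.2% of all genes did). The median log2 ratio was 0.37, against 0.0018 over all genes. At the level of probe sets, 10 of 36 were higher and none was lower, against 3.88% and 2.92% of those named by 1 symbol. In 9 of the 10 both signals reached 40, and 7 of the 10 were still past 2-fold under all 4 other scales. This list, like the others, was chosen with earlier results of these data known. Its shares beside those of all genes are therefore a description and not independent support.

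The regulators of ciliated cells showed this in both gene copies where both were measured. The signal of foxj1.S, a forkhead factor that directs the making of motile cilia, was 1355 in 666 chimera, 535 in GlycineR and 921 in Control, a 2.53-fold difference between the depolarized groups. The L copy read 254 in 666 chimera, 126 in GlycineR and 214 in Control, which is 2.02-fold. Cyclin O, needed for the multiplication of centrioles, had 1758 in 666 chimera, 553 in GlycineR and 1063 in Control for ccno.L, a 3.18-fold difference. Its S copy had 488 in 666 chimera, 165 in GlycineR and 341 in Control, 2.96-fold. In all 4 of these probe sets the Control signal lay between the others.

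Other genes of ciliated cells were measured at lower signals. The coactivator multicilin, mcidas.S, which starts multiciliated cell formation, had 109 in 666 chimera, 46.5 in GlycineR and 49.3 in Control. The ciliary microtubule protein tektin 2 had 108 in 666 chimera, 52.6 in GlycineR and 47.6 in Control for tekt2.S, and 125, 10.3 and 73.4 for tekt2.L in that order. Genes for other parts of the cilium stayed under 2-fold, such as the dynein chain gene dnai1.L with 121 in 666 chimera, 107 in GlycineR and 116 in Control. The ciliary transcription factor gene rfx2.S likewise read 398 in 666 chimera, 309.5 in GlycineR and 416 in Control.

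The largest difference of the list at a well-measured gene was in foxi1.L, a forkhead factor of the early ectoderm that specifies ionocytes. Its signal was 1739 in 666 chimera, 334 in GlycineR and 581 in Control, a log2 ratio of 2.38 between the depolarized groups. The cement gland gene agr2 was higher at both copies, with 2589.5 in 666 chimera, 870.1 in GlycineR and 969.7 in Control for agr2.L. For agr2.S the signals were 1109 in 666 chimera, 465 in GlycineR and 523.5 in Control. Its relative ag1 did not reach 2-fold at any of 3 probe sets, the widest gap being 4382 in 666 chimera, 2310.0 in GlycineR and 3294 in Control. In foxi1.L, as in foxj1 and ccno, Control lay between the depolarized groups, while for agr2 the GlycineR and Control signals were close. The other ionocyte genes were within 2-fold, with log2 ratios of -0.69 for the anion exchanger slc4a1, 0.38 for the carbonic anhydrase ca12, and 0.21 and 0.26 for the proton pump subunits atp6v1a and atp6v0d1.

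The list was also set against Control on each array, in ratios that share the Control array and so are not independent. The median log2 ratio was 0.39 for 666 chimera over Control and -0.10 for GlycineR over Control. In 666 chimera 18 of 22 genes were above Control, and in GlycineR 8 of 22. Over all 7464 genes 3727 were above Control in 666 chimera and 3678 in GlycineR. The hybridization spike-ins were at 0.46 in 666 chimera and 0.41 in GlycineR over Control, so a place above or below Control depends on scaling.

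**Figure D3:**
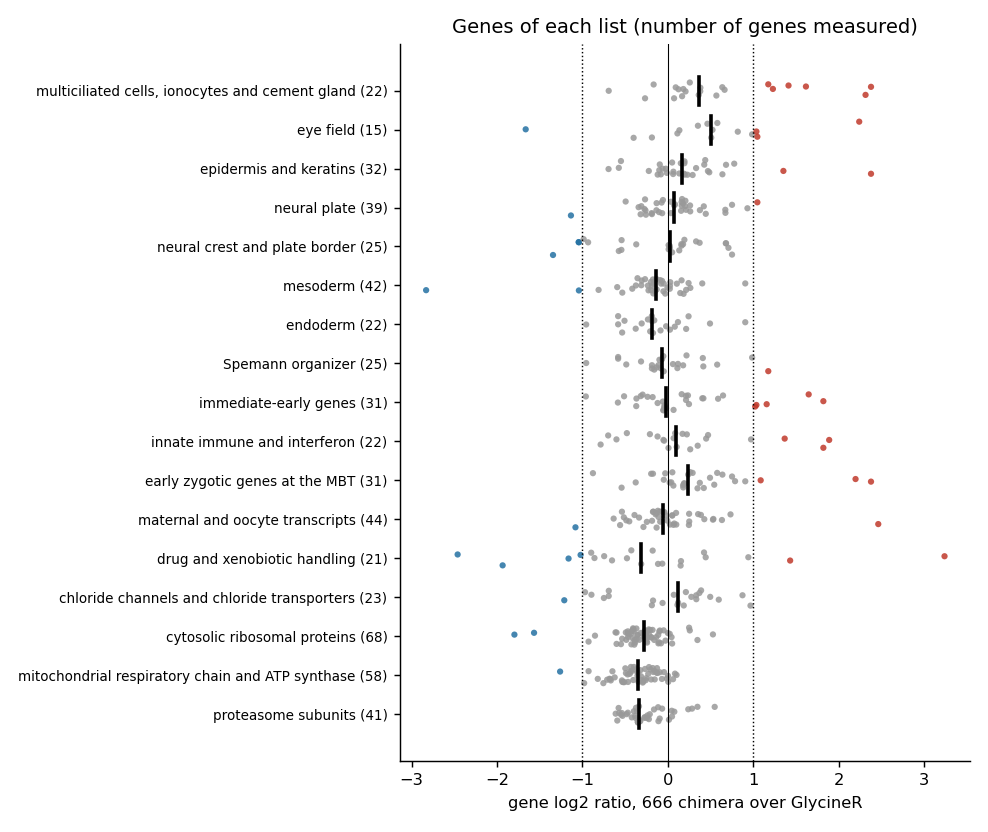
Log2 ratio of 666 chimera over GlycineR for each gene of 17 of the lists (points, with red at least 2-fold higher and blue at least 2-fold lower in 666 chimera), the median of each list (black bar), 0.0018 for all genes (thin line) and 2-fold (dotted lines). The ciliated, ionocyte and cement gland list had a median of 0.37, and the ribosomal, mitochondrial and proteasome lists sat left of 0 with medians of -0.27, -0.35 and -0.33.

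Eye field genes, mostly transcription factors of the part of the anterior neural plate from which eyes form, leaned the same way. Of 15 genes, 3 were 2-fold higher in 666 chimera, 1 was lower and 12 lay above 0, against 3.52%, 2.45% and 50.2% of all genes, with a median log2 ratio of 0.51. The retinal homeobox gene rax led them at 5 probe sets, 4 of them 2-fold higher. At the brightest of these, rax.L had 155 in 666 chimera, 67.1 in GlycineR and 49.0 in Control, and rax.S had 152 in 666 chimera, 44.1 in GlycineR and 61.9 in Control. The other rax probe sets were at or under 97.2 in 666 chimera and under 40 in GlycineR. The Control signal of every rax probe set was under 100, where 12.9% or more of probe sets differed 2-fold over the array.

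Brighter genes of the same region showed smaller differences. The anterior homeobox gene hesx1 had 263 in 666 chimera, 119 in GlycineR and 262 in Control for its S copy, a 2.21-fold difference. Its L copy had 1486 in 666 chimera, 837 in GlycineR and 1286 in Control, under 2-fold. The homeobox gene six3.L, active in forebrain and eye, had 282 in 666 chimera, 160 in GlycineR and 218.5 in Control. The eye selector gene pax6.L was nearly equal in the depolarized groups, at 1619 in 666 chimera and 1324 in GlycineR, and both were well above 664 in Control. The member on the other side was the Wnt receptor gene fzd5.S, with 22.9 in 666 chimera, 72.6 in GlycineR and 33.0 in Control. Of the 8 probe sets that differed 2-fold, 3 stayed past 2-fold under all 4 other scales, all of rax. They were the rax.S probe set at 44.1 in GlycineR and weak ones at 6.73 (rax.L) and 3.79 (rax.S) in GlycineR. The brightest rax.L probe set did not stay.

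The wider neural plate list did not separate the arrays. Among 39 genes the median log2 ratio was 0.07, with 1 gene 2-fold higher and 1 lower in 666 chimera, against 3.52% and 2.45% of all genes. The early neural factor sox1.S read 126 in 666 chimera, 60.9 in GlycineR and 51.4 in Control. The neuronal factor neurod1.L read 29.1 in 666 chimera, 63.9 in GlycineR and 37.1 in Control. The bright pan-neural genes were nearer, as with sox3.L at 4725 in 666 chimera, 3293 in GlycineR and 4939 in Control.

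Neural crest and plate border genes included several that were lower in 666 chimera. Of 25 genes, 3 were 2-fold lower and none was higher (against 2.45% lower over all genes), and 5 of 56 probe sets were lower with both signals at 40 or more. The median of the list was nevertheless 0.02, since 16 of the 25 genes lay above 0. Crest and border genes lay on both sides. The crest genes snai1 and ets1 were level at 0.02 and 0.01, and twist1 and kit had 0.68 and 0.71. Among border genes msx2 and prdm1 had -0.57 and -0.54, while pax3, dlx3 and zic1 had 0.16, 0.68 and 0.75.

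The crest specifier snai2.L, a repressor that permits crest cells to leave the epithelium, had 47.9 in 666 chimera, 168 in GlycineR and 90.6 in Control, a 3.50-fold difference. The transcription factor gene sox9.S had 828 in 666 chimera, 1661 in GlycineR and 877 in Control, just past the threshold at 2.01-fold, and its L copy had 318 in 666 chimera, 622 in GlycineR and 374 in Control. The related sox8.L had 271 in 666 chimera, 543 in GlycineR and 276 in Control at its brightest probe set. The crest factor gene tfap2b.L had 54.8 in 666 chimera, 139 in GlycineR and 52.1 in Control. For sox9, sox8 and tfap2b the 666 chimera and Control signals were alike and the GlycineR array was the high one. Of the 5 probe sets only snai2.L stayed past 2-fold under all 4 other scales, and the second snai2 probe set, of the S copy, read 78.1 in 666 chimera, 94.6 in GlycineR and 106 in Control.

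Immediate-early genes, which are switched on within minutes of a stimulus without new protein, held some of the clearest single differences. Of 31 genes, 5 were 2-fold higher in 666 chimera and none was lower, against 3.52% and 2.45% of all genes. At the level of probe sets 9 of 66 were higher, against 3.88% of those named by 1 symbol. The median of the list was -0.02, with 15 genes above 0 and 16 below. The 5 genes were junb, fos and jun, which encode parts of the AP-1 transcription factor, the nuclear receptor gene nr4a1 and socs3, a feedback inhibitor of cytokine signaling.

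The signal of junb.L was 792 in 666 chimera, 170 in GlycineR and 66.9 in Control, 4.66-fold between the depolarized groups. For fos.S it was 377 in 666 chimera, 120 in GlycineR and 65.2 in Control, 3.14-fold. For socs3.S it was 160 in 666 chimera, 44.1 in GlycineR and 44.1 in Control, 3.63-fold. The 666 chimera array was the highest in each of these, with GlycineR above Control for junb and fos and equal to it for socs3.S. The weaker jun.L read 152 in 666 chimera, 68.1 in GlycineR and 32.8 in Control. The difference was not shared by myc.L, a bright gene of the list, with 5242 in 666 chimera, 6546 in GlycineR and 5669 in Control. Another junb probe set, of the S copy, also ran against the L copy, with 78.5 in 666 chimera, 108 in GlycineR and 20.9 in Control.

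The innate immune list had 3 of 22 genes higher and none lower, against 3.52% and 2.45% of all genes, with a median log2 ratio of 0.09. By name, acod1lb.L is a relative of the aconitate decarboxylase gene that mammalian macrophages switch on during infection, and it was among the widest differences on the array. A first probe set gave 12548 in 666 chimera, 1776 in GlycineR and 496 in Control, a 7.07-fold difference between the depolarized groups. A second gave 2921 in 666 chimera, 210.7 in GlycineR and 62.8 in Control, 13.9-fold. In both, the 666 chimera array was highest and Control lowest, but another probe set of the same symbol read 274 in 666 chimera, 528 in GlycineR and 481.0 in Control. The cytokine inhibitor socs1.L had 411 in 666 chimera, 182 in GlycineR and 80.8 in Control. The nuclear factor kappa B subunit gene rela.L was level, with 1318 in 666 chimera, 1129 in GlycineR and 1228 in Control.

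**Figure D4:**
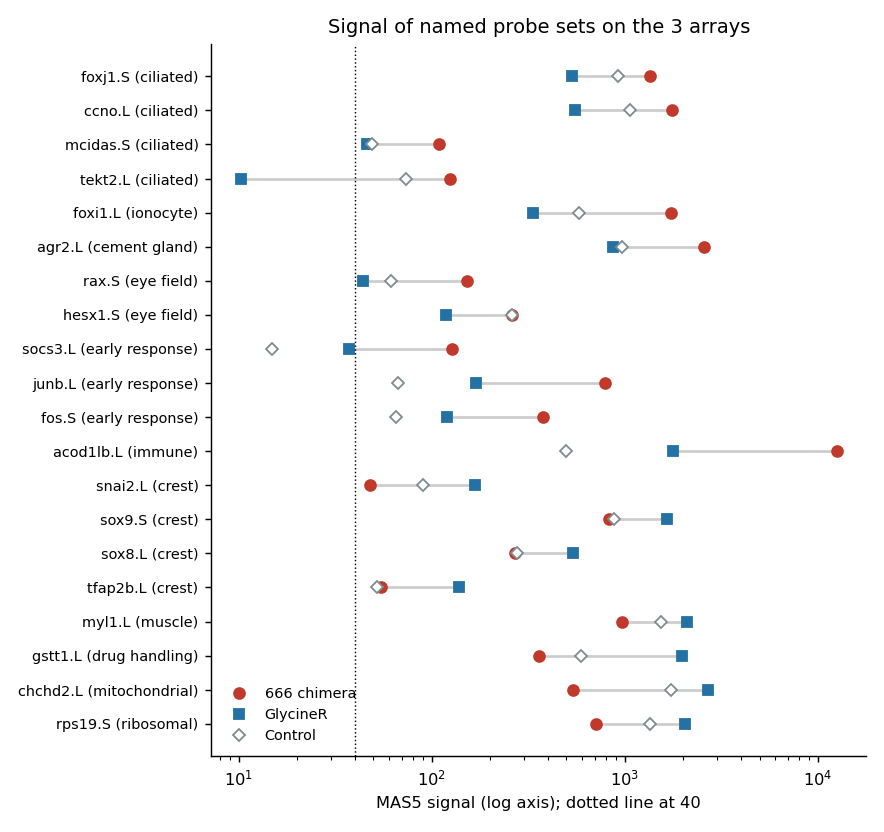
MAS5 signal (log axis) of 20 named probe sets on the 666 chimera (red circles), GlycineR (blue squares) and Control (open diamonds) arrays, 1 array each, with the dotted line at 40. For foxj1.S the order was 1355, 535 and 921, and for snai2.L 47.9, 168 and 90.6, in the order 666 chimera, GlycineR and Control.

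In the epidermis and keratin list 2 of 32 genes were 2-fold higher and none was lower, against 3.52% and 2.45% of all genes, with a median of 0.17. Besides foxi1 this was gata3.S, a transcription factor of the early epidermis, with 530 in 666 chimera, 161 in GlycineR and 245 in Control at 1 probe set. A second probe set of gata3.S read 782 in 666 chimera, 395 in GlycineR and 453 in Control. Keratins of the larval skin were level, such as krt70.S with 29649 in 666 chimera, 32259 in GlycineR and 26531 in Control. The keratin gene krt19 split between its probe sets, with 2043 in 666 chimera, 1011 in GlycineR and 904 in Control at one of the S copy, against 780 in 666 chimera, 1595 in GlycineR and 735 in Control at one of the L copy.

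Mesoderm, endoderm and organizer genes were mostly within 2-fold and leaned slightly to GlycineR. The median log2 ratios were -0.14 over 42 mesoderm genes, -0.18 over 22 endoderm genes and -0.07 over 25 organizer genes. In these lists 0, 0 and 1 gene were 2-fold higher and 2, 0 and 0 lower, against 3.52% and 2.45% of all genes. The 1 higher gene was foxj1, which is also active in the organizer, and the 2 lower were snai2 and pax8, a kidney and ear placode factor, with pax8.L at 6.12 in 666 chimera, 43.6 in GlycineR and 31.2 in Control. The mesodermal T-box gene tbxt.L, the frog brachyury, had 4708 in 666 chimera, 5690.4 in GlycineR and 7556 in Control, while tbxt.S had 6501 in 666 chimera, 5614 in GlycineR and 7341 in Control. Apart from foxj1.S, the widest gap in these lists with both signals at 500 or more was in cer1.S, a secreted inhibitor of Nodal, BMP and Wnt, with 1367 in 666 chimera, 2654 in GlycineR and 2796 in Control, which is under 2-fold. The T-box gene eomes.S, of mesoderm and endoderm, passed 2-fold upward, with 336.5 in 666 chimera, 151 in GlycineR and 296 in Control. Its L copy read 869 in 666 chimera, 550.1 in GlycineR and 744.5 in Control.

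The early zygotic list was drawn up for the first genes that the embryo transcribes. Its members can also be maternal, as vegt was on the maternal list too, and maternal supply was not examined. The median log2 ratio of the list was 0.24. Of its 31 genes 24 were above 0, 3 were higher 2-fold and none lower, against 50.2%, 3.52% and 2.45% of all genes. The 3 were foxi1, bix1.2 and pou5f3.3. The homeobox gene bix1.2.S, a mesendoderm gene, read 88.4 in 666 chimera, 19.3 in GlycineR and 66.5 in Control. The pluripotency factor gene pou5f3.3.L read 110.0 in 666 chimera, 51.8 in GlycineR and 65.3 in Control. The signals of pou5f3.2.L, a brighter relative, were 6355 in 666 chimera, 4361 in GlycineR and 6357 in Control. Set against the shared Control, the list had a median of 0.14 in 666 chimera and -0.18 in GlycineR.

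The signaling pathways that pattern the gastrula differed little. The median log2 ratio was 0.14 for 41 BMP genes, -0.05 for 54 Wnt genes, 0.07 for 34 FGF and MAPK genes and 0.14 for 28 Nodal and activin genes. In these lists 2 genes were 2-fold higher and 2 lower in 666 chimera, all within Wnt and FGF, against 3.52% and 2.45% of all genes. The scaffold gene dvl3.L, which carries the Wnt signal from its receptor, had 554 in 666 chimera, 175 in GlycineR and 431 in Control at 1 probe set. The lower genes were the receptor gene fzd5, given above, and tcf7l2, a transcription factor of the pathway, with 17.5 in 666 chimera, 43.7 in GlycineR and 16.9 in Control for tcf7l2.L. The membrane protein gene flrt1.S, of a family that binds FGF receptors, had 174 in 666 chimera, 17.5 in GlycineR and 45.2 in Control.

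Most genes of the ribosomal, mitochondrial and proteasome lists had slightly lower signals in 666 chimera than in GlycineR, nearly all by less than 2-fold. Of 68 cytosolic ribosomal protein genes, 61 had a ratio below 0, with a median log2 ratio of -0.27 and 2 genes past 2-fold. Of 58 genes of the mitochondrial respiratory chain and ATP synthase, 53 were below 0, with a median of -0.35 and 1 past 2-fold. Of 41 proteasome genes, 33 were below 0, with a median of -0.33 and none past 2-fold. None of the genes of these 3 lists was 2-fold higher. The translation factors and tRNA synthetases, 59 genes, had a median of -0.07 with 39 below 0. By their means 2 of them, eif2s1 and eef1a2, were 2-fold higher. The eif2s1 mean passed through 1 of its 5 probe sets, with 1341 in 666 chimera and 4.57 in GlycineR. Its other probe sets lay between -0.89 and 0.26. The only eef1a2 probe set read 58.9 in 666 chimera and 18.85 in GlycineR. Over all 7464 genes 3717 were below 0, with 3.52% 2-fold higher and 2.45% 2-fold lower. The probe sets with a Control signal of 3000 or more had a median of -0.07.

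Examples show how small the shift was for a single gene. The respiratory chain carrier cytochrome c, cycs.S, had 10422 in 666 chimera, 13337 in GlycineR and 12235 in Control. The cytochrome oxidase subunit gene cox5a.S had 4498 in 666 chimera, 7147 in GlycineR and 5832 in Control. The ribosomal stalk protein gene rplp0.S had 4488 in 666 chimera, 7113 in GlycineR and 7226 in Control, and the proteasome subunit gene psmb7.S had 2096 in 666 chimera, 3029.5 in GlycineR and 2707 in Control. Set against the shared Control array, the medians in 666 chimera and GlycineR were -0.15 and 0.13 for the ribosomal list, -0.38 and -0.04 for the mitochondrial list and -0.23 and 0.08 for the proteasome list. The hybridization spike-ins were at 0.46 in 666 chimera and 0.41 in GlycineR over Control, and the polyA spike-ins at 0.25 and 0.38. Levels relative to Control thus depend on the scaling of that array. The 3′ to 5′ ratio of gapdh given above also differed between the arrays, and its part in this shift was not tested.

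The genes of these lists past 2-fold were rps25, rpl24 and cox4i2, each through weak probe sets. For rps25.S the signal was 1.99 in 666 chimera, 128 in GlycineR and 46.2 in Control. For cox4i2.L, a cytochrome oxidase subunit, it was 9.24 in 666 chimera, 54.2 in GlycineR and 30.1 in Control. The bright S copy of cox4i2 was level, with 2526 in 666 chimera, 2480 in GlycineR and 2960 in Control. Single probe sets of other genes also passed. For rps19.S the signal was 708.5 in 666 chimera, 2044 in GlycineR and 1350.3 in Control, yet the mean of the 3 rps19 probe sets was -0.49. For rpl24.L it was 103 in 666 chimera, 513 in GlycineR and 345 in Control at a weak probe set, and 2673 in 666 chimera, 4705 in GlycineR and 3839 in Control at a bright one. The ATP synthase gene atp5pd.S had 944 in 666 chimera, 2426 in GlycineR and 1166 in Control, while atp5pd.L was level at 334, 335 and 325 in that order. A pair of mitochondrial protein genes outside the list were also among the widest at high signal. These were chchd2.L, with 543 in 666 chimera, 2708 in GlycineR and 1739.9 in Control, and higd2a.L, a respiratory chain assembly gene, with 561 in 666 chimera, 2016 in GlycineR and 1568 in Control, although higd2a.S read 495 in 666 chimera, 607 in GlycineR and 633 in Control.

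Genes for handling drugs and foreign chemicals are of interest because, by the study's methods, only the GlycineR embryos were kept with ivermectin. These embryos also carried another construct, so no difference below can be assigned to the drug. Of 21 genes, 2 were 2-fold higher and 4 were lower in 666 chimera, against 3.52% and 2.45% of all genes, and the median log2 ratio was -0.31. The glutathione transferase gene gstt1.L was the widest at measurable levels, with 358 in 666 chimera, 1974 in GlycineR and 597 in Control, 5.51-fold. The quinone reductase gene nqo1.L had 147 in 666 chimera, 298 in GlycineR and 212 in Control. The reductase that supplies electrons to cytochromes P450, por.L, had 356 in 666 chimera, 1014 in GlycineR and 648 in Control at 1 probe set and 1381 in 666 chimera, 1363 in GlycineR and 1859 in Control at another. For gstt1 the GlycineR array stood above the other 2, while por did not keep its direction between probe sets.

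The other 2 lower genes, mgst1 and sult1c2, were under 40 in 666 chimera. The 3 probe sets of this list that were 2-fold higher were all weak. The drug efflux pump gene abcb1.L read 55.9 in 666 chimera, 5.92 in GlycineR and 14.3 in Control. For gsta1.L, a glutathione transferase, the signals were 73.3 in 666 chimera, 11.8 in GlycineR and 4.64 in Control, and its S copy was level. The P450 gene cyp1a1.S read 42.2 in 666 chimera, 12.1 in GlycineR and 15.4 in Control, and its L copy 60.6 in 666 chimera, 57.4 in GlycineR and 21.7 in Control. Of the 9 probe sets of the drug list that differed 2-fold, 4 stayed past it under all 4 other scales. These were abcb1.L and gsta1.L, higher in 666 chimera, and gstt1.L and por.L, lower in 666 chimera. The oxidative stress and glutathione list of 27 genes had a median of 0.03, with 1 gene higher and 1 lower, against 3.52% and 2.45% of all genes. Heat shock genes, 33 of them, had a median of -0.05 and no gene past 2-fold.

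Maternal and oocyte transcripts, 44 genes, had a median of -0.06 with 1 gene higher and 1 lower. A median of 0.03 was found for 91 cell cycle genes, with 1 higher and none lower. Over all genes 3.52% were higher and 2.45% lower. Of 159 cell cycle probe sets, 7 were 2-fold higher and 2 lower, against 3.88% and 2.92% of probe sets named by 1 symbol. Of these 9 probe sets, 8 stayed past 2-fold under all 4 other scales. The ribonucleotide reductase subunit gene rrm2.1.L, which supplies DNA precursors, had 13298 in 666 chimera, 5853 in GlycineR and 211.5 in Control, so that both depolarized groups were far above Control. Survivin, birc5.S, had 1904 in 666 chimera, 866 in GlycineR and 2951 in Control. The embryonic cyclin ccna1 was split between its copies, with 227 in 666 chimera, 94.3 in GlycineR and 154 in Control for ccna1.L and 257 in 666 chimera, 620.1 in GlycineR and 1152 in Control for ccna1.S. The oocyte linker histone gene h1-8.S had 10369 in 666 chimera, 3682 in GlycineR and 4806 in Control.

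The widest differences with both signals at 40 or more were chosen by rank, 12 in each direction, and fell on genes of unlike function. Upward they were led by vopp1.S, with 834 in 666 chimera, 45.4 in GlycineR and 110.1 in Control, 18.4-fold. Next came ca10.L, of the carbonic anhydrase family, with 1877 in 666 chimera, 123 in GlycineR and 1906 in Control. The apoptosis inhibitor gene faim.L had 444 in 666 chimera, 50.3 in GlycineR and 233 in Control, and the peptidase gene thop1.L had 946 in 666 chimera, 183 in GlycineR and 128 in Control. The Control signal thus lay with 666 chimera for ca10 and with GlycineR for thop1. Among genes of at least 500 on both arrays, satpb.L had 3969.5 in 666 chimera, 799.9 in GlycineR and 241 in Control, and phyhdlb.L had 6088 in 666 chimera, 1756 in GlycineR and 642 in Control. Like acod1lb, satpb and phyhdlb were highest in 666 chimera and lowest in Control.

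Downward the widest was the apoptosis inhibitor gene api5.L, with 75.5 in 666 chimera, 10177 in GlycineR and 7673 in Control. The other api5 probe sets did not share it, with 2596 in 666 chimera, 3232 in GlycineR and 3266 in Control for the L copy and 5592 in 666 chimera, 5575 in GlycineR and 6739 in Control for the S copy. The RNA-binding protein gene chtop.S was alike in this, with 475.5 in 666 chimera, 3150.1 in GlycineR and 2629 in Control at 1 probe set and level signals such as 15849 in 666 chimera, 14425 in GlycineR and 14388 in Control at another. Genes with a single probe set could not be checked in this way, among them the deubiquitinase gene uchl5.L, with 146 in 666 chimera, 1327 in GlycineR and 1277 in Control. For the globin gene hba-l5.L one probe set had 1527 in 666 chimera, 7827 in GlycineR and 6373 in Control and a second had 211 in 666 chimera, 84.4 in GlycineR and 34.8 in Control.

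Few genes differed 2-fold at every one of several kept probe sets. Of 2915 genes with at least 2 kept probe sets, 12 were 2-fold higher at every one and 9 were 2-fold lower at every one. Probe sets under 40 on both arrays were not counted. Of the 24 probe sets of the higher genes 18 stayed past 2-fold under all 4 other scales, and of the 18 of the lower genes 12 did. The 12 higher genes included ccno, foxj1, agr2, tekt2, socs3 and faim, described above. Others were trappc5.L, of a complex for vesicle traffic, with 906 in 666 chimera, 261 in GlycineR and 788 in Control, and the nuclear export receptor gene xpo6, with 1316 in 666 chimera, 578 in GlycineR and 844 in Control for xpo6.L. The S copy of xpo6 read 321 in 666 chimera, 148.5 in GlycineR and 298 in Control. Both pcgf2 copies, of a Polycomb protein, were also higher, the L copy reading 125 in 666 chimera, 59.9 in GlycineR and 104 in Control.

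Among the 9 lower genes, the muscle myosin light chain gene myl1 was lower at both copies, with 973 in 666 chimera, 2114.5 in GlycineR and 1553 in Control for myl1.L. For myl1.S the signals were 195 in 666 chimera, 417 in GlycineR and 163 in Control. The guanylate-binding protein gene gbp1 had 89.2 in 666 chimera, 595 in GlycineR and 120 in Control at one kept probe set. At the other kept one it had 82.6 in 666 chimera, 283 in GlycineR and 162 in Control, and its further probe sets were under 40 on both arrays. The summed signal of the 11 muscle marker probe sets, those of myl1 among them, was 6607 in 666 chimera, 11617 in GlycineR and 5554 in Control. Cardiac actin, actc1, had 3847 in 666 chimera, 6311 in GlycineR and 2671.5 in Control at its brighter probe set, which is under 2-fold. In 666 chimera actc1 and myl1.S lay above Control, while myl1.L lay below it. The growth factor gene igf3.L was lower at both of its probe sets, the brighter with 126 in 666 chimera, 257 in GlycineR and 108 in Control.

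Agreement between probe sets of a gene was limited over the array as a whole. Over 6858 pairs of probe sets of the same gene, the log2 ratios had a Pearson correlation of 0.20 and a Spearman correlation of 0.25, given as a description since pairs share genes and both arrays. Of 747 pairs in which at least one probe set differed 2-fold, the other differed 2-fold the same way in 68 and the opposite way in 17, and it had the same sign in 468 (62.7%). In 2118 pairs with all signals at 500 or more the Pearson correlation was 0.39. It was 0.47 for 1252 such pairs on one homeolog and 0.27 for 855 pairs across the L and S copies.

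**Figure D5:**
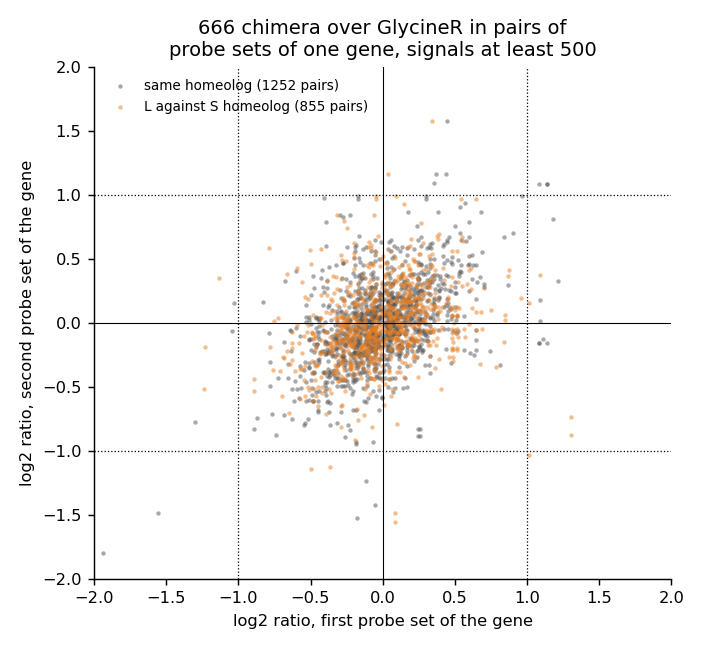
Log2 ratio of 666 chimera over GlycineR at one probe set of a gene against that at another, for pairs with all 4 signals at 500 or more (grey, same homeolog, 1252 pairs, and orange, L against S, 855 pairs), with dotted lines at 2-fold. The points form a loose diagonal cloud, with a Pearson correlation of 0.39 over all 2118 pairs, and few lie past 2-fold on both axes.

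The Control level was set beside the 2-fold differences. Of the 459 probe sets that were higher in 666 chimera with both signals at 40 or more, Control was within 2-fold of GlycineR alone in 148 (32.2%) and of 666 chimera alone in 90 (19.6%), and within 2-fold of both in 194 (42.3%). Of the 349 that were lower, Control was within 2-fold of GlycineR alone in 104 (29.8%) and of 666 chimera alone in 85 (24.4%), and of both in 149 (42.7%). Control lay 2-fold below both in 22 of the higher and 7 of the lower, the acod1lb, satpb, phyhdlb and junb.L probe sets among the higher ones. In the largest class, in both directions, Control was within 2-fold of both and so was not apart from either.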

How the data were processed

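Total RNA from pools of 50 stage 11 embryos was hybridized to Affymetrix *X. laevis* Genome 2.0 arrays, 1 array per condition. The authors normalized each array with MAS5, and the deposited values are linear MAS5 signals (unit intensity); software version and presence calls are not given in the sources used here, and precision is limited by the single array per condition and, as the text shows, by low signal. From these, log2 ratios of 666 chimera over GlycineR were computed with Python 3.11.15, numpy 2.4.6 and pandas 2.3.3, without a pseudocount, for probe sets of at least 40 on either array, leaving out 160 control probe sets. Probe sets were named through the platform annotation where it gave 1 symbol (15495 probe sets, 11870 of them kept; 2 symbols were updated through RefSeq), and a gene's value was the mean over its probe sets. A probe set or gene was called at 2-fold. The study's methods used 2-fold against control. A present call was required in the experimental group for higher transcripts and in the control group for lower ones. The floor of 40 replaces these calls here. Named genes were the 12 widest in each direction with both signals at least 40, or at least 500. Also named were genes with all of 2 or more kept probe sets past 2-fold (up to 12 each way). Members of 35 gene lists past 2-fold were named too, and others were added for contrast after their values were seen. The comparison, members and lists were chosen with earlier results of these data known. The calculation was tested on simulated arrays with a noise set by hand and without weak probe sets. That test checks the arithmetic of the calls and not how often they err at low signal. Alternatives were other floors, folds and scalings, and the classing by Control signal was chosen after seeing the data.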

Additional observations from a re-analysis of the deposited data

Results flagged for a closer look

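In 10 named probe sets the ratios of 666 chimera and GlycineR to Control lay on opposite sides, each at least 2-fold by calculation. The difference was not tested, since each condition had 1 array, and both ratios share the Control array. In 9 of the 10 at least 1 depolarized signal was under 40, so these ratios are calculations on values near background and give no measured size. Over all probe sets kept 76 were of this kind, of which 4 had both depolarized signals at 40 or more.

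The exception was vopp1.S, with log2 ratios over Control of 2.92 in 666 chimera and -1.28 in GlycineR. For eif2s1.S, a translation initiation factor subunit, the ratios were 7.12 in 666 chimera and -1.07 in GlycineR, from signals of 1341 in 666 chimera, 4.57 in GlycineR and 9.62 in Control. Another eif2s1.S probe set had 863 in 666 chimera, 1598 in GlycineR and 1349 in Control. The efflux pump gene abcb1.L gave 1.97 in 666 chimera and -1.27 in GlycineR, flrt1.S gave 1.95 in 666 chimera and -1.37 in GlycineR, and the retinal gene rax.L gave 1.835 in 666 chimera and -2.02 in GlycineR at its weaker probe set.

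The other 5 were high in GlycineR. The ribosomal protein gene rps25.S gave -4.54 in 666 chimera and 1.47 in GlycineR, from signals of 1.99 in 666 chimera, 128 in GlycineR and 46.2 in Control, while a bright probe set of it had 8556 in 666 chimera, 11239 in GlycineR and 9508 in Control. The globin gene hbg1.L gave -2.345 in 666 chimera and 1.59 in GlycineR, from signals of 3.50 in 666 chimera, 53.6 in GlycineR and 17.8 in Control. For rcn1.L, a calcium-binding protein of the secretory pathway, the ratios were -1.43 in 666 chimera and 1.07 in GlycineR. A pair of probe sets of the unnamed locus LOC101027296 gave -4.23 and -1.62 in 666 chimera and 1.098 and 1.02 in GlycineR.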

How the results depend on the processing

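Counts of 2-fold differences followed the signal floor and the threshold. Probe sets higher and lower in 666 chimera numbered 3296 and 2838 with no floor (the standard deviation of the log2 ratio was then 1.02), 1982 and 1650 with a floor of 20, 483 and 376 with a floor of 100, and 459 and 349 with 40 required on both arrays. At a fold of 1.5 they numbered 2903 and 2125, at a fold of 3 they numbered 363 and 270, and with 32 added to every signal 403 and 314. Quantile normalization gave 908 and 900, and a common median 875 and 896, so that the excess of higher calls (58.2% of calls) was 50.2% and 49.4% there. Of 172 named probe sets 106 stayed past 2-fold with 32 added, and 161 at a common median. The blood and globin median of -0.23 was 0.30 without probe sets marked for cross-hybridization, by construction over fewer probe sets. The medians of the ciliated, eye field, ribosomal, mitochondrial and proteasome lists kept their sign under all 11 alternatives, with ranges of 0.30 to 0.38, 0.35 to 0.52, -0.34 to -0.22, -0.41 to -0.32 and -0.40 to -0.29. No paired analysis was possible because each condition had 1 array and the labels carry no replicate numbers.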
